A study of Mus musculus with 24 samples.

Results

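DMSO, the solvent control of the compound arm, was followed over time in murine B-cell acute lymphoblastic leukemia cells. The comparison sets the 3 DMSO libraries collected at 48 h against the 3 collected at 24 h, 6 of the 24 libraries of the series. They were taken by treatment and time from the labels, with no use of any measured value. All cells of the series carried the BCR-ABL1 fusion oncogene, Foxo1 alleles flanked by loxP sites (Foxo1 fl/fl) and Cre-ERT2, a recombinase that acts once 4-hydroxytamoxifen (4-OHT) is present. DMSO cells received neither 4-OHT nor the FOXO1 inhibitor AS1842856, so Foxo1 was floxed but Cre had not been activated by design. The solvent was given in the amount that matches 70 nM AS1842856. The other groups used here are EtOH cells at 48 h and 24 h, the solvent control for 200 nM 4-OHT, and AS1842856 cells at 48 h and 24 h, each with 3 libraries. The tissue label is bone marrow, the culture medium held 20% serum, and no strain, age or number of independent lines is stated. Whether the 3 replicates came from separate cultures is not stated either, so a p-value covers the spread among libraries alone, and that spread may be technical.

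BCR-ABL1 is a constitutively active tyrosine kinase that signals through STAT5, PI3K and RAS and keeps B-cell precursors dividing. Mammalian cells meet low sterol with the SREBP transcription factors, which switch on cholesterol and fatty acid synthesis, and low amino acids with ATF4, the effector of the integrated stress response.

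Values are the authors' normalised expression on a log2 scale, and 1 unit is a doubling only as far as that scale is linear at high levels. Since they are not counts, library depth is unknown. Of 41444 listed genes, 11470 were tested. Their average expression, as the authors' own column gives it, was at least the log2 value of a normalised count of 10 plus 1 (3.459). That column is not the mean of the library values, and in 209 tested genes the mean of the 24 libraries was under the filter value. The median of tested genes lay between 9.16 and 9.20 in the 6 DMSO libraries. All 10 B-lineage markers were tested, with mean log2 values from 7.16 to 14.62. Of 14 myeloid markers 3 were tested, with a summed linear level of 81.95 to 101.7 at 48 h, against 104.6 to 140.6 at 24 h, and Elane, Ly6g, S100a8 and S100a9 stood at 0 in every library. Of 14 T and NK markers 3 were tested (1526 to 1776 at 48 h, against 1840 to 2091 at 24 h), with Cd4 and Ncr1 at 0. Erythroid markers were 2 of 11 tested (22.63 to 27.62 at 48 h, against 23.79 to 26.84 at 24 h) with all 4 globin genes listed and Pf4 at 0. The stromal list had 1 of 12 tested (810.1 to 1258 at 48 h, against 812 to 922.2 at 24 h), and Col3a1, Pdgfra, Kdr, Emcn and Dcn were at 0. The myeloid sums and the T and NK sums were lower in every 48 h library than in every 24 h library. A linear sum mostly follows its most abundant member. Gata1 averaged 2.942 at 48 h and 2.864 at 24 h in DMSO, and Csf1r 3.175 and 3.291. All 4 means lay under the filter value, so part of the erythroid and myeloid sums may be the bottom of the scale. Of the T and NK markers Lck differed by -0.26, while Cd28 and Zap70 differed by 0.17 and 0.04. Without library 1 at 48 h these were -0.29 for Lck, 0.09 for Cd28 and -0.05 for Zap70. Of the myeloid markers Lyz2 differed by -0.51, Csf1r by -0.12 and Cx3cr1 by 0.02 (0.04 for Cx3cr1 without library 1 at 48 h). The part of these markers in the results below was not tested. In bulk RNA, fewer cells of a type and less RNA per cell cannot be told apart.

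Library 1 at 48 h stood apart from the other DMSO libraries. On the first principal component of the 6 libraries, with 44.2% of the variance, it lay at 23.72, against -0.98 and -0.78 for libraries 2 and 3 at 48 h. The 24 h libraries lay at -7.76, -3.05 and -11.14. Its root mean square difference from libraries 2 and 3 at 48 h was 0.275 and 0.272 on the log2 scale, whereas libraries 2 and 3 differed by 0.166. The 3 pairs of 24 h libraries differed by 0.221 to 0.222. Btg2, an antiproliferative gene, shows the pattern: library 1 held 9.75, and libraries 2 and 3 held 8.44 and 8.27 at 48 h, against 8.18, 8.30 and 8.32 at 24 h. Mxd4, a MAX partner that opposes MYC, held 11.06 in library 1, and 10.02 and 9.94 in the others at 48 h, against 9.92, 10.06 and 9.56 at 24 h. Cad, the first enzyme of pyrimidine synthesis, lay the other way, with 11.51 in library 1, and 12.34 and 12.24 in the others, against 12.06, 12.07 and 12.51 at 24 h. Without library 1 the differences of Btg2, Mxd4 and Cad, 48 h minus 24 h, were 0.09, 0.13 and 0.08, against 0.55, 0.49 and -0.18 with it. Library 1 of AS1842856 cells at 48 h lay on the same side of its own group for these genes: Btg2 held 9.63, 8.89 and 8.84 there, Mxd4 10.42, 9.70 and 9.60, and Cad 11.78, 12.22 and 12.21. What libraries numbered 1 share was not tested. Genes whose DMSO difference moved by over 1.5 times are given below with and without library 1. List medians are given without it for some lists only. A median printed alone includes library 1.

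The AS1842856 libraries at 24 h did not keep together by treatment. Library 3 differed from libraries 1 and 2 of its group by 0.287 and 0.282 (root mean square, log2 scale), and those differed by 0.206 from each other. It was closer to DMSO library 2 at 24 h, at 0.167, and that DMSO library was farther from the others of its own group, at 0.221 each. Whether these libraries match their labels was not tested.

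**Figure D1:**
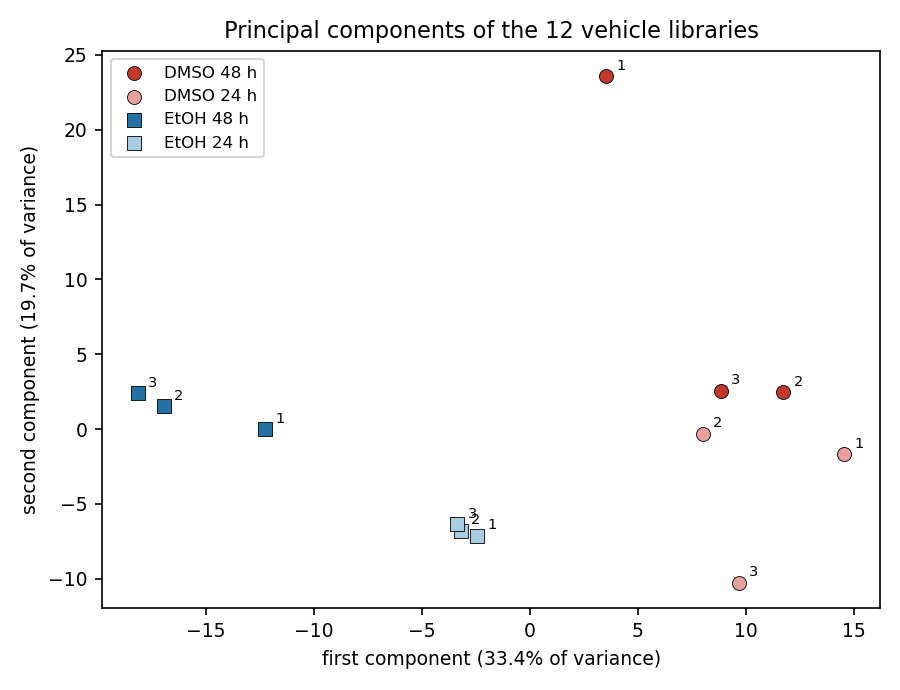
Principal components of the 12 vehicle libraries over 11470 tested genes; each point is a library, numbered by replicate, and the axes give component scores with the share of variance in percent. DMSO lies right of EtOH on the first component (33.4%), and DMSO library 1 at 48 h lies alone at 23.59 on the second (19.7%).

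Between 48 h and 24 h in DMSO, 1 gene of 11470 passed the test (limma, adjusted p under 0.05), which is 0.00872% of tested genes, and it was higher at 48 h. It is Gm10698, a processed pseudogene (ENSMUSG00000079884, GRCm38 chromosome 9, 33728247 to 33728850, plus strand). It held 3.93, 4.02 and 3.85 at 48 h, against 2.701, 2.702 and 2.706 at 24 h. The groups did not overlap. Of the 21 libraries outside DMSO at 48 h, 20 lay between 2.696 and 2.709, the bottom level of this gene, and the other held 3.73. The fitted difference was 1.23 ± 0.07 (log2, SE; limma, adjusted p = 0.000905), which restates the distance from that bottom level and is neither a fold nor a bound. Its average expression in the authors' column was 4.36 while its 24 libraries averaged 2.90, so it entered the test only through that column. A processed pseudogene is a copy of a spliced transcript, so its reads may belong to a parent gene, and its level is low. No gene was lower at an adjusted p under 0.05, and the next smallest adjusted p was 0.171. At an unadjusted p under 0.05 there were 614 higher (5.35%) and 555 lower genes (4.84%), 10.2% in all. With single libraries left out 1 to 4 genes passed, 4 without library 3 at 48 h and 2 without library 3 at 24 h.

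The number of calls differed with the groups in the fit. With all 8 groups in 1 fit, 223 genes passed for the same DMSO difference, 1.94% of tested genes, 123 of them higher (1.07%) and 100 lower (0.872%). With the 4 vehicle groups in the fit 104 passed, and with the 4 groups of the compound arm 1. The median standard deviation over genes was 0.0982 in DMSO at 48 h and 0.0950 at 24 h, against 0.0631 in EtOH at 48 h and 0.0566 at 24 h. At 48 h and 24 h it was 0.0621 and 0.0680 in 4-OHT cells, and 0.0790 and 0.116 in AS1842856 cells. A fit of all 8 groups takes its variance from all of them. Its p-values, here and for the genes below, therefore do not measure the DMSO spread alone. Gene lists are described by members whose 3 libraries at 48 h did not overlap the 3 at 24 h, as a count without a test. Over all tested genes 937 were higher without overlap (8.17%) and 1055 lower (9.20%), and these shares are the background for the counts that follow. With libraries rescaled to equal medians the shares were 6.4% higher (734) and 11.4% lower (1312), and with a single library left out 11.5% to 14% higher and 13.6% to 16.8% lower. The median difference over all tested genes was -0.0004.

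Cholesterol synthesis genes lay higher at 48 h. All 24 tested members of the 25-gene list had a positive difference, with a median of 0.33 and a range of 0.04 to 0.85. Of these, 15 did not overlap between times, all higher, beside 8.17% of all tested genes. None passed the test in the fit of the 2 groups or in that of the 4 groups of the compound arm. In the fit of all 8 groups 10 passed, where 1.07% of all genes passed as higher. The mean of the list in a library averaged 10.27 ± 0.105 at 48 h and 9.92 ± 0.183 at 24 h (SD, n = 3 each), without overlap. Without library 3 at 24 h the list median was 0.24, and without library 1 at 48 h it was 0.41.

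**Figure D2:**
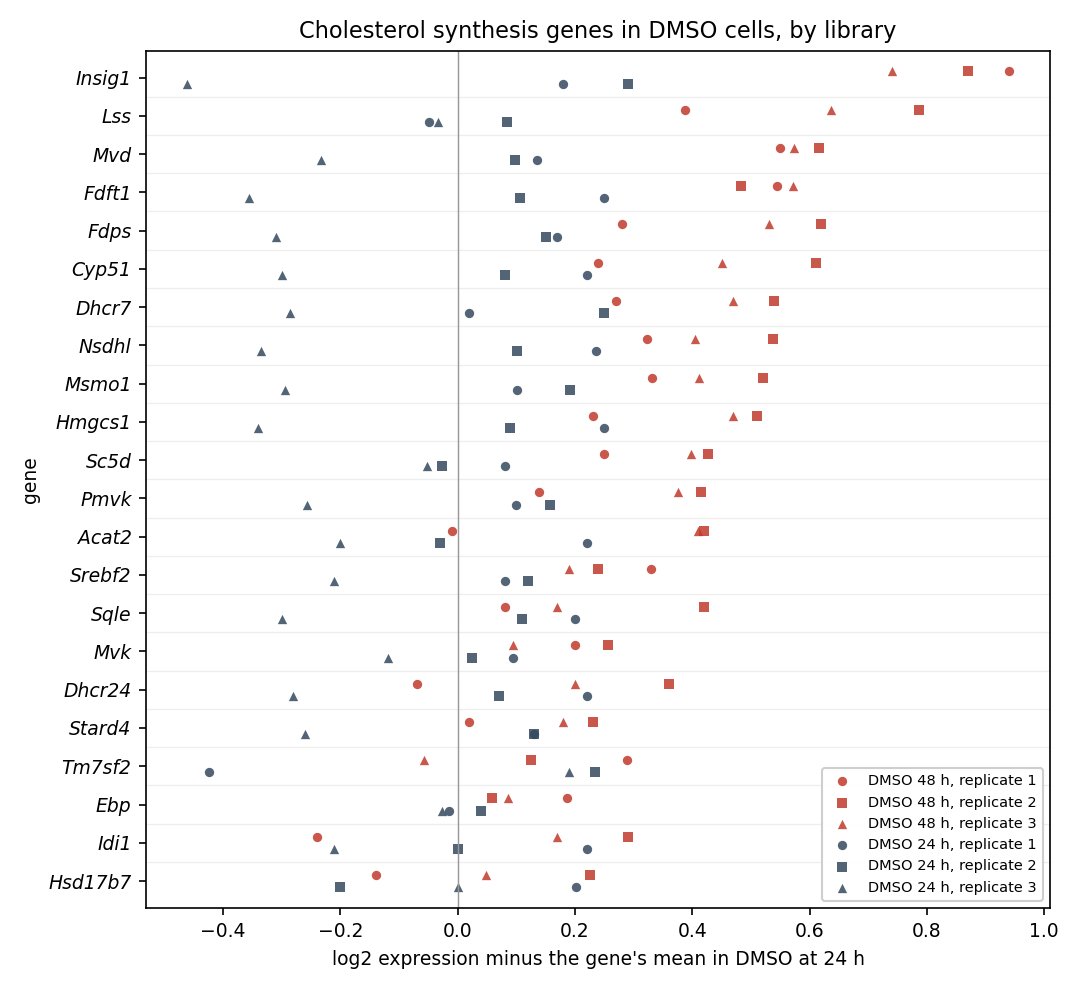
Log2 expression of 22 of the 24 tested cholesterol synthesis genes in each DMSO library, minus the mean of the gene at 24 h (x axis, log2 units); red marks are the 48 h libraries and dark marks the 24 h libraries, with a shape for each replicate. In 13 of the 22 genes drawn every 48 h mark lies right of every 24 h mark, and library 3 at 24 h is the leftmost mark for 18.

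Among the enzymes, Lss, the lanosterol synthase that closes the sterol ring (ENSMUSG00000033105, GRCm38 chromosome 10, 76531588 to 76557138, plus strand), held 9.73, 10.13 and 9.98 at 48 h, against 9.29, 9.43 and 9.31 at 24 h. The 24 h libraries lay close together and below all 48 h libraries, by 0.60 ± 0.10 (limma, adjusted p = 0.247). Mvd, which decarboxylates mevalonate diphosphate to isopentenyl diphosphate, held 8.90, 8.96 and 8.92 at 48 h, against 8.48, 8.44 and 8.11 at 24 h. Its difference was 0.58 ± 0.11 (adjusted p = 0.247 by limma), with library 3 the lowest at 24 h. Sc5d, a late desaturase, held 9.89, 10.07 and 10.04 at 48 h, against 9.72, 9.62 and 9.59 at 24 h, a difference of 0.36 ± 0.07 without overlap. Lss, Mvd and Sc5d all passed in the fit of all 8 groups, with adjusted p of 0.00066, 0.00224 and 0.00641 by limma. Hsd17b7, a sterol ketoreductase, is at the low end of the list, with 8.64, 9.01 and 8.83 at 48 h, against 8.98, 8.58 and 8.78 at 24 h. Its groups overlapped and its difference of 0.04 ± 0.13 changed sign without library 2 of either time, and was 0.14 without library 1 at 48 h.

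The regulators lay on the same side. Insig1, which holds SREBP in the endoplasmic reticulum when sterol is ample and is itself an SREBP target (ENSMUSG00000045294, chromosome 5, 28071363 to 28078662, plus strand), held 10.96, 10.89 and 10.76 at 48 h, against 10.20, 10.31 and 9.56 at 24 h. All 48 h libraries were above all 24 h libraries, of which library 3 was the lowest, and the difference was 0.85 ± 0.17 (limma, adjusted p = 0.251). Srebf2, the SREBP that governs sterol genes, held 12.67, 12.58 and 12.53 at 48 h, against 12.42, 12.46 and 12.13 at 24 h. Its difference of 0.26 ± 0.09 was without overlap but smaller than that of Insig1, and it did not pass in the 2-group fit or the fit of all 8 groups (limma, adjusted p = 0.451 and 0.102). Without library 3 at 24 h it was 0.15.

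The promoter of Hmgcs1, which makes HMG-CoA, is shown because it was the one sterol gene of 17 with a promoter entry whose window held the sterol regulatory element TCACNCCAC, searched on both strands. That is 5.88% of the 17, against 1.38% of the promoters of 8406 tested genes, over 250 bases before to 50 after the start. The 250 bases before the start, from RefSeq on GRCm38.p6, chr13:119690101-119690350, plus strand, have the element in capitals, its first base 137 bases before the start.
Hmgcs1: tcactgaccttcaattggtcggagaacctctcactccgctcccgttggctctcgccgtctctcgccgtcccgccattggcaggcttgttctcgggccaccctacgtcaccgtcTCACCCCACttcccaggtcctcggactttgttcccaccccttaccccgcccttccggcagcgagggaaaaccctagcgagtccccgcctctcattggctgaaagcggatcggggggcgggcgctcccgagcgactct
Hmgcs1 itself held 10.96, 11.24 and 11.20 at 48 h, against 10.98, 10.82 and 10.39 at 24 h. Library 1 at 48 h lay just below library 1 at 24 h, so the groups overlapped, and the difference was 0.40 ± 0.15 (limma, adjusted p = 0.454), or 0.23 without library 3 at 24 h. The match describes letters in the window and nothing more.

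Of 13 fatty acid synthesis genes 12 were tested, 5 of them higher without overlap and none lower, with a list median of 0.21. The 5 are the SREBP gene of this branch and 4 desaturases, and all 5 passed in the fit of all 8 groups. Scd2, a stearoyl-CoA desaturase, held 14.15, 14.25 and 14.33 at 48 h, against 13.55, 13.72 and 12.63 at 24 h, a difference of 0.94 ± 0.24. Library 3 at 24 h lay far below the other libraries, and the difference was 0.61 without it. Scd1, its paralog, held 13.22, 13.14 and 13.23 at 48 h, against 12.65, 12.82 and 12.16 at 24 h, a difference of 0.65 ± 0.15. Srebf1 held 11.47, 11.49 and 11.56 at 48 h, against 11.06, 11.20 and 10.80 at 24 h, a difference of 0.49 ± 0.10 (limma, adjusted p = 0.251). Its 48 h libraries were nearly level while the 24 h libraries spread, library 3 lowest. Fads1 and Fads2, which desaturate polyunsaturated fatty acids, differed by 0.33 ± 0.08 and 0.60 ± 0.14. Without library 1 at 48 h, 8 members were higher without overlap, beside 11.5% of all tested genes.

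Abcg1, an exporter of cholesterol that is usually induced by sterol through LXR, also lay higher, with 10.31, 9.90 and 9.97 at 48 h, against 9.25, 9.49 and 8.87 at 24 h. The groups did not overlap and differed by 0.86 ± 0.16 (limma, adjusted p = 0.247, and 0.00436 in the fit of all 8 groups).

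Genes of the ATF4 programme leaned the same way. Of 28 members 26 were tested and 24 of them had a positive difference, 11 without overlap and none lower, with a median of 0.20. None passed in the 2-group fit and 3 passed in the fit of all 8 groups. The mean of the list in a library was 10.28, 10.01 and 10.15 at 48 h, against 9.85, 9.92 and 9.94 at 24 h. Library 1 was thus the highest at 48 h, above the other 48 h libraries by a median of 0.14 over the list. The list median of 0.20 includes it. Sesn2, a stress-induced brake on mTORC1 (ENSMUSG00000028893, chromosome 4, 132492032 to 132510501, minus strand), held 8.92, 8.44 and 8.63 at 48 h, against 8.13, 8.05 and 7.87 at 24 h. The groups did not overlap, library 1 being highest at 48 h, and differed by 0.65 ± 0.13 (limma, adjusted p = 0.251). Trib3, a pseudokinase that feeds back on ATF4, held 9.03, 8.50 and 8.87 at 48 h, against 8.13, 8.32 and 8.30 at 24 h, a difference of 0.55 ± 0.14. Mthfd2, a mitochondrial folate enzyme, held 11.91, 11.68 and 11.85 at 48 h, against 11.51, 11.50 and 11.61 at 24 h, a difference of 0.27 ± 0.07. Sesn2, Trib3 and Mthfd2 are the 3 that passed with all 8 groups. Atf4 itself differed by 0.18 ± 0.06, with 12.76, 12.66 and 12.68 at 48 h, against 12.59, 12.45 and 12.51 at 24 h, and Ddit3, the transcription factor CHOP, by 0.47 ± 0.15 (0.30 without library 1 at 48 h).

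The promoter of Chac1, a glutathione-degrading enzyme induced by ATF4, is shown as 1 of the 5 of 22 ATF4 list promoters (22.7%) that held the composite element TGATGNAAN on either strand, against 2.63% of tested genes. It comes from RefSeq, GRCm38.p6, chr2:119350992-119351241, plus strand, with the element (on the minus strand, so read here as its reverse complement) in capitals, its first base 194 bases before the start.
Chac1: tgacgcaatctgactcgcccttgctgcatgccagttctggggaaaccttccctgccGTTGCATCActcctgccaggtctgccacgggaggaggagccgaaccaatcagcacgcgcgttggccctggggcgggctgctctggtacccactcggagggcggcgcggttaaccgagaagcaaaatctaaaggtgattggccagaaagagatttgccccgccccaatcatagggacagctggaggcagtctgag
Chac1 held 9.13, 8.29 and 8.36 at 48 h, against 8.04, 8.17 and 8.10 at 24 h. The groups did not overlap, but libraries 2 and 3 at 48 h lay close to the 24 h libraries and library 1 well above them, and the difference was 0.49 ± 0.20 (limma, adjusted p = 0.476), or 0.23 without library 1 at 48 h.

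Amino acid carriers included 5 of 15 tested genes higher without overlap and 1 lower. Slc6a9, a glycine transporter, held 8.78, 8.29 and 8.53 at 48 h, against 7.62, 7.86 and 7.89 at 24 h, a difference of 0.75 ± 0.14 (limma, adjusted p = 0.247, and 0.0276 with all 8 groups). Slc1a4, which carries alanine, serine and cysteine, held 9.81, 9.50 and 9.71 at 48 h, against 9.12, 9.26 and 9.29 at 24 h, a difference of 0.45 ± 0.10. In both, every 48 h library was above every 24 h library. Atf3, a stress-induced transcription factor, held 7.05, 6.78 and 7.40 at 48 h, against 6.03, 6.25 and 6.02 at 24 h. It differed by 0.98 ± 0.16 without overlap (limma, adjusted p = 0.247, and 0.000421 with all 8 groups).

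The list of MYC targets leaned lower. Of 30 MYC target and ribosome biogenesis genes 29 had a negative difference, with a median of -0.21, yet 5 were lower without overlap, beside 9.20% of all tested genes. The median was -0.08 without library 1 at 48 h, which lay below the other 48 h libraries by a median of -0.35 over the list. Odc1, the ornithine decarboxylase of polyamine synthesis, held 13.41, 13.71 and 13.78 at 48 h, against 14.04, 14.04 and 14.03 at 24 h. The 24 h libraries were almost equal and all above the 48 h libraries, a difference of -0.41 ± 0.10 (limma, adjusted p = 0.348, and 0.00486 with all 8 groups). Srm, the spermidine synthase, held 11.06, 11.72 and 11.63 at 48 h, against 11.89, 11.71 and 11.98 at 24 h, so that the groups overlapped, with a difference of -0.39, and -0.19 without library 1 at 48 h. Mat2a, which makes S-adenosylmethionine, held 12.08, 12.46 and 12.27 at 48 h, against 12.69, 12.48 and 12.68 at 24 h, a difference of -0.35 ± 0.10 without overlap.

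Of 16 heat shock genes 5 were lower and 1 higher without overlap, with a median of -0.16, and -0.09 without library 1 at 48 h. Hsp90aa1, the inducible HSP90, held 14.39, 14.76 and 14.87 at 48 h, against 15.06, 15.02 and 15.13 at 24 h, a difference of -0.40 ± 0.12, and -0.25 without library 1 at 48 h. Chordc1, a co-chaperone of HSP90, held 11.03, 11.08 and 11.22 at 48 h, against 11.32, 11.44 and 11.43 at 24 h, a difference of -0.29 ± 0.07. Dnaja1, an HSP40, differed by -0.30 ± 0.10 (-0.18 without that library), and these 3 passed with all 8 groups (limma, adjusted p = 0.0369, 0.00362 and 0.0485). Hspa1b lay on the opposite side, with 6.09, 6.35 and 6.20 at 48 h, against 5.72, 5.6 and 5.74 at 24 h. Its difference was 0.53 ± 0.11 and also passed with all 8 groups (limma, adjusted p = 0.0251), but its reads may be shared with the near-identical Hspa1a.

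Hspe1, the mitochondrial co-chaperonin, lies head to head with its partner Hspd1, and their windows overlap. The shared stretch is shown because it held a heat shock element, here GAA, TTC and GAA with 2 free bases between neighbours, searched on both strands. It was in 4 of 12 heat shock promoters (33.3%), against 0.571% of tested genes, and the shared stretch counts for both Hspe1 and Hspd1 among the 4. The Hspe1 side, from RefSeq, GRCm38.p6, chr1:55087898-55088147, plus strand, has a pair of overlapping matches in capitals, starting 89 and 84 bases before the start.
Hspe1: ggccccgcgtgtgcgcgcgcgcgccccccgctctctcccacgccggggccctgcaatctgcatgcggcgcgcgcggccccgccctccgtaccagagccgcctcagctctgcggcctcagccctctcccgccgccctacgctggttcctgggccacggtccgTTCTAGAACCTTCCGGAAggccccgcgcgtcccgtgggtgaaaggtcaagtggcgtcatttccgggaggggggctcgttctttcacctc
Hspe1 held 12.04, 12.42 and 12.42 at 48 h, against 12.60, 12.47 and 12.62 at 24 h, a difference of -0.27 ± 0.11. Hspd1 held 13.67, 14.14 and 14.23 at 48 h, against 14.35, 14.18 and 14.39 at 24 h, a difference of -0.29 ± 0.14. In both, library 1 was the lowest at 48 h, and without it the differences were -0.14 for Hspe1 and -0.12 for Hspd1. Hspd1 overlapped between times where Hspe1 did not.

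Some of the remaining growth and metabolism lists leaned lower. Differences were negative for 16 of 20 unfolded protein response genes and 18 of 22 serine, one-carbon and nucleotide synthesis genes. For oxidative phosphorylation 23 of 28 were negative, and library 1 lay below the other 48 h libraries by a median of -0.14. Negative differences numbered 20 of 32 for G1/S, 11 of 30 for G2/M and 15 of 30 for ribosomal proteins. The unfolded protein response had 3 higher and 4 lower of 20 without overlap (median -0.15, and -0.07 without library 1 at 48 h), with Herpud1, of endoplasmic reticulum degradation, at 0.37 ± 0.12 and the chaperone Hsp90b1 at -0.24 ± 0.10 (0.23 and -0.14 without that library). Serine, one-carbon and nucleotide synthesis had 3 higher and 6 lower of 22 (median -0.13, and -0.06 without that library). Oxidative phosphorylation had 5 lower of 28 (median -0.09), with Cycs, the soluble cytochrome c, at -0.40 ± 0.15 (-0.19 without that library). For G1/S and DNA replication the median was -0.04, with 1 higher and 2 lower of 32, and for G2/M and mitosis it was 0.01, with 2 higher and 1 lower of 30. Cytosolic ribosomal proteins had a median of -0.002, and 1 of 30 was higher without overlap.

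The FOXO genes and their targets were read in cells with no FOXO1 inhibitor. Foxo1 (ENSMUSG00000044167, chromosome 3, 52268336 to 52353221, plus strand) held 9.70, 9.40 and 9.34 at 48 h, against 9.61, 9.74 and 9.71 at 24 h. Library 1 at 48 h lay among the 24 h libraries and the other 48 h libraries below them, a difference of -0.21 ± 0.10 (limma, adjusted p = 0.516), and -0.32 without library 1 at 48 h. Foxo3 and Foxo4 differed by 0.14 ± 0.08 and 0.19 ± 0.09, Foxo4 by 0.11 without that library. Of 30 tested FOXO targets 10 were higher and 1 lower without overlap, with a median of 0.14 that was 0.04 without library 1 at 48 h. Ccr7, a homing receptor, differed by 0.43 ± 0.17 (0.25 without library 1), Bbc3, the pro-apoptotic PUMA, by 0.34 ± 0.11 and Klf2, a quiescence factor of lymphocytes, by 0.36 ± 0.13, with adjusted p of 0.461, 0.442 and 0.448 by limma. Klf2 overlapped between times. Cyclin-dependent kinase inhibitors and quiescence genes had a median of 0.22, and 0.10 without library 1 at 48 h, with 3 higher and 1 lower of 16. Tob1, an antiproliferative gene, held 8.66, 8.36 and 8.37 at 48 h, against 8.15, 8.18 and 7.71 at 24 h, a difference of 0.45 ± 0.14.

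Among 30 B-lineage genes 4 were higher and none lower without overlap, with a median of 0.08, and -0.01 without library 1 at 48 h. Cd22, an inhibitory co-receptor of the B-cell receptor (ENSMUSG00000030577, chromosome 7, 30865402 to 30880342, minus strand), held 10.92, 10.43 and 10.27 at 48 h, against 9.82, 9.31 and 8.98 at 24 h. The difference of 1.17 ± 0.22 had an adjusted p of 0.247 by limma, and 0.00533 with all 8 groups. Irf4, a transcription factor of the pre-B to B transition and of plasma cells, held 12.16, 12.02 and 11.92 at 48 h, against 11.65, 11.63 and 11.38 at 24 h. The groups did not overlap and differed by 0.48 ± 0.09 (limma, adjusted p = 0.247, and 0.00038 with all 8 groups). Spi1, the factor PU.1, differed by 0.20 ± 0.08. Feedback inhibitors induced by STAT5 did not all lie on the same side. Cish held 10.45, 10.52 and 10.44 at 48 h, against 11, 10.78 and 10.74 at 24 h. Socs1 held 7.85, 7.84 and 8.02 at 48 h, against 8.38, 8.27 and 8.46 at 24 h, while Socs2 held 13.27, 13.08 and 13.04 at 48 h, against 13.02, 12.87 and 12.74 at 24 h. None of these 3 overlapped, and the differences were -0.37 ± 0.08, -0.47 ± 0.10 and 0.26 ± 0.09.

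**Figure D3:**
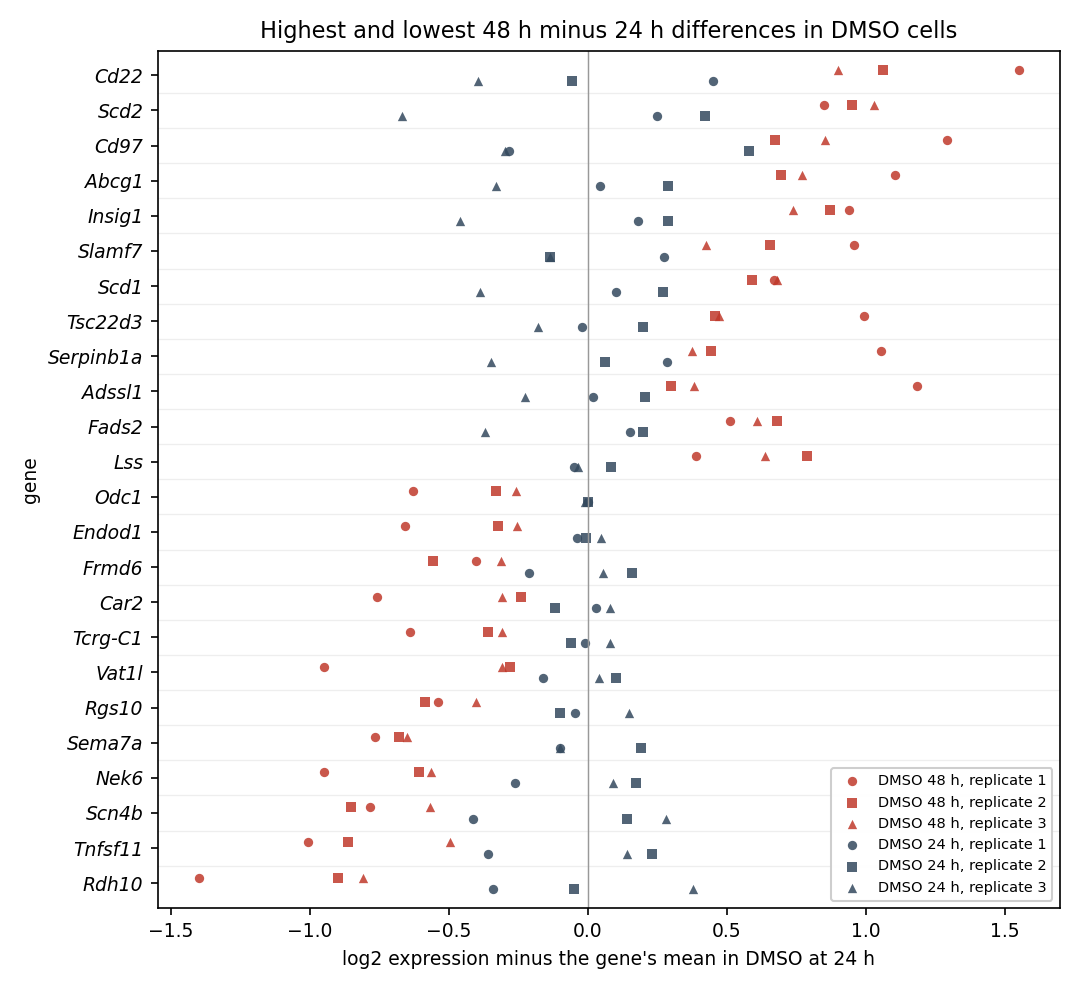
Log2 expression of 24 genes in each DMSO library, minus the mean of the gene at 24 h (x axis, log2 units), for the 12 highest and 12 lowest differences among genes without overlap between times and with an average expression, in the authors' column, no lower than that of the median tested gene. Genes with a predicted or clone name were left out. Red marks are 48 h and dark marks 24 h, with a shape for each replicate. Library 1 at 48 h is the outermost red mark for 17 of the 24 genes.

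Genes were then taken by the size of their difference, with no test, since no gene met the naming rule that required one. They also had to show no overlap between times, an average expression at or above the median tested gene, and no predicted or clone name. Among the 12 highest were 5 lipid genes already described, namely Scd2, Insig1, Scd1, Fads2 and Lss, besides Abcg1 and Cd22. Cd97, an adhesion receptor, held 10.59, 9.97 and 10.15 at 48 h, against 9.014, 9.879 and 9.001 at 24 h, a difference of 0.94 ± 0.24. Library 2 at 24 h came close to the 48 h libraries. Slamf7, a receptor of activated lymphocytes, differed by 0.68 ± 0.15, Tsc22d3, the glucocorticoid-induced leucine zipper and a FOXO target, by 0.64 ± 0.16, Serpinb1a, a protease inhibitor, by 0.62 ± 0.20, and Adssl1, an enzyme of AMP synthesis, by 0.62 ± 0.22. Without library 1 at 48 h Serpinb1a differed by 0.41 and Adssl1 by 0.34. At the low end, Rdh10, a retinol dehydrogenase (ENSMUSG00000025921, chromosome 1, 16105774 to 16133734, plus strand), held 10.01, 10.51 and 10.60 at 48 h, against 11.07, 11.36 and 11.79 at 24 h. All 48 h libraries were below all 24 h libraries, which the selection required, and the difference was -1.03 ± 0.20 (limma, adjusted p = 0.247).

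Sema7a, a membrane-anchored semaphorin (ENSMUSG00000038264, chromosome 9, 57940112 to 57962865, plus strand), held 9.89, 9.98 and 10.01 at 48 h, against 10.56, 10.85 and 10.56 at 24 h. Its difference of -0.69 ± 0.09 had the next smallest adjusted p after Gm10698 (0.171 by limma), and both groups were tight. Tnfsf11, the cytokine RANKL, differed by -0.79 ± 0.17, Scn4b, a sodium channel subunit, by -0.74 ± 0.17, Nek6, a mitotic kinase, by -0.71 ± 0.14, and Rgs10, a regulator of G-protein signalling, by -0.51 ± 0.09. Car2, a carbonic anhydrase, differed by -0.43 ± 0.13 and Tcrg-C1, a T-cell receptor gamma constant gene with near-identical copies, by -0.44 ± 0.09. Vat1l, Frmd6, Endod1 and Odc1 completed the 12. Without library 1 at 48 h the differences were -0.27 for Car2 and -0.29 for Vat1l, against -0.51 for Vat1l with it.

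The EtOH libraries offered a second vehicle over the same interval, with no library in common. In EtOH 2908 genes passed (25.4%), 1534 higher (13.4%) and 1374 lower (12%). The count was 1751 and 1892 without EtOH 24 h library 1 or 2, and 1810 and 1704 without EtOH 48 h library 2 or 3. The median absolute difference was 0.0862 in DMSO and 0.106 in EtOH, and the median standard error was 0.0914 in DMSO and 0.0591 in EtOH. Differences of at least 0.5 were seen in 146 genes in DMSO and 233 in EtOH. Without overlap, 355 genes were higher in both vehicles, 37.9% of the 937 in DMSO and 13.2% of the 2694 in EtOH (23.5% of tested genes). Lower in both were 345, which is 32.7% of the 1055 in DMSO and 14.3% of the 2409 in EtOH (21.0% of tested genes). Of the 937 higher in DMSO, 131 were lower in EtOH without overlap, beside 21.0% of all tested genes. Of the 1055 lower in DMSO, 156 were higher in EtOH without overlap, beside 23.5% of all tested genes.

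**Figure D4:**
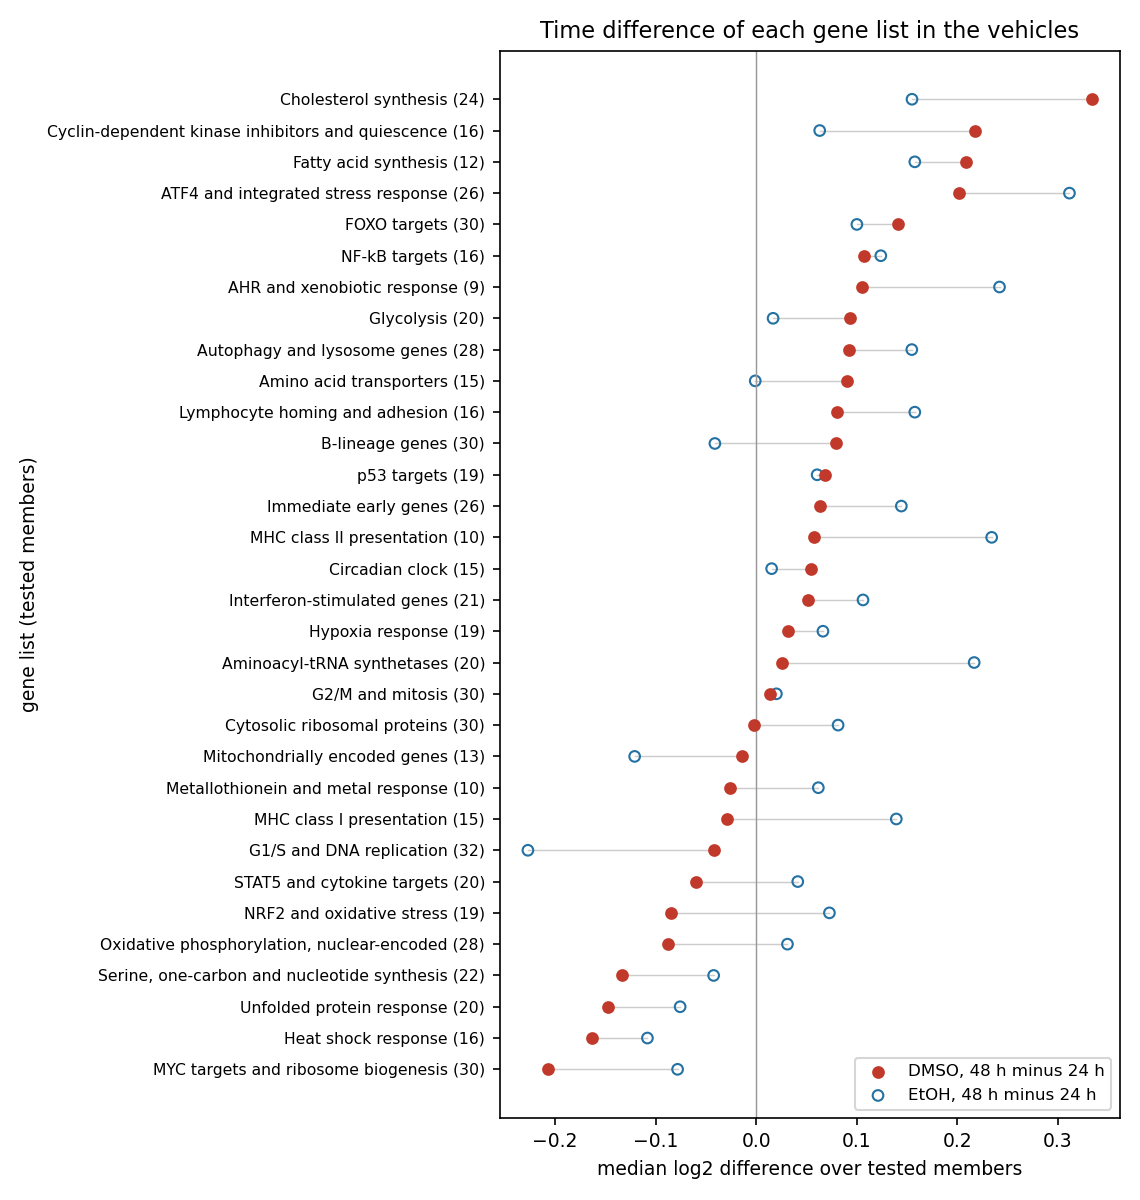
Median log2 difference, 48 h minus 24 h, over the tested members of each of 32 gene lists (x axis); filled red points are DMSO, open blue points EtOH, and numbers in brackets are tested members. Cholesterol synthesis has the highest DMSO median, 0.33 against 0.15 in EtOH, and the MYC list the lowest, -0.21 against -0.08 in EtOH.

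By list, cholesterol synthesis had a median of 0.33 in DMSO and 0.15 in EtOH, where 12 members passed as higher and 1 as lower. Fatty acid synthesis had 0.21 in DMSO and 0.16 in EtOH (7 higher and 2 lower passed in EtOH). The ATF4 list had 0.20 in DMSO and 0.31 in EtOH (19 higher and 1 lower). The G1/S list had -0.04 in DMSO and -0.23 in EtOH, where 25 of 32 members passed as lower. MHC class I presentation had -0.03 in DMSO and 0.14 in EtOH (9 higher and 1 lower), and aminoacyl-tRNA synthetases had 0.03 in DMSO and 0.22 in EtOH (15 higher).

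Whether the time changes differed was tested directly, DMSO change minus EtOH change, and 91 genes passed (0.793%), 43 with a positive difference (0.375%) and 48 with a negative one (0.418%). No cholesterol or fatty acid synthesis gene was among them, and of the ATF4 list 2 were. Tmprss3, a membrane serine protease, differed by 1.32 between the time changes (limma, adjusted p = 0.0187): 10.28, 9.81 and 9.85 at 48 h, against 9.45, 9.38 and 9.74 at 24 h in DMSO, with a difference of -0.86 in EtOH. Lta, the cytokine lymphotoxin alpha, differed by -0.98 (limma, adjusted p = 0.0159), with 10.95, 11.14 and 11.11 at 48 h, against 11.21, 11.33 and 10.99 at 24 h in DMSO, where the groups overlapped, and a difference of 0.87 in EtOH. Sema7a differed by -0.73, with -0.69 in DMSO and 0.03 in EtOH, and Rgs10 by -0.61, with -0.51 in DMSO and 0.10 in EtOH (limma, adjusted p = 0.0187 and 0.0336). Cd24a, a surface marker of B-cell precursors, differed by 0.66, with 0.08 in DMSO (0.01 without library 1 at 48 h) and -0.58 in EtOH (limma, adjusted p = 0.0390). For Foxo1 the time changes were -0.21 in DMSO and 0.23 in EtOH, and their difference of -0.44 did not pass (limma, adjusted p = 0.0812). The count of 91 ranged from 2 without EtOH 24 h library 2 or EtOH 48 h library 3 to 212 without DMSO 24 h library 3.

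**Figure D5:**
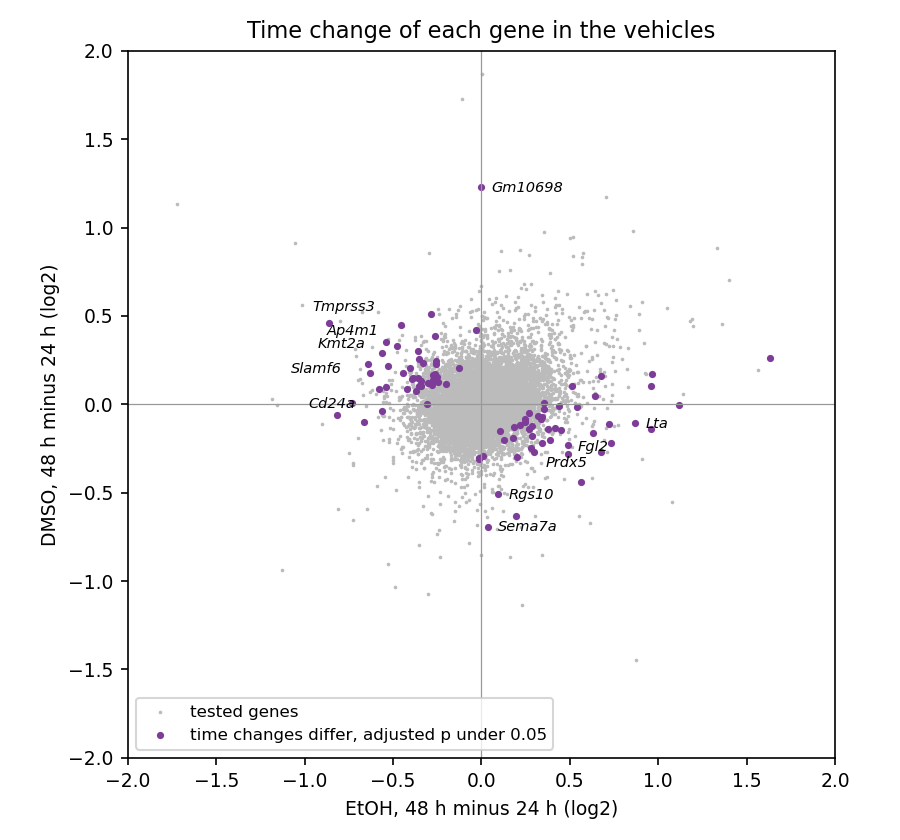
Log2 difference, 48 h minus 24 h, of each tested gene in DMSO (y axis) and in EtOH (x axis); purple points are the 91 genes whose time changes differed (limma, adjusted p under 0.05), and named points are Gm10698 and the 10 chosen by the naming rule. Sema7a and Rgs10 lie low on the DMSO axis near 0 in EtOH, and 1 gene, the ribosomal pseudogene Rps6-ps4 with 4.48 in DMSO (adjusted p = 0.616 by limma), lies beyond the frame.

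In AS1842856 cells 46 genes passed between 48 h and 24 h (0.401%), 35 higher (0.305%) and 11 lower (0.0959%). The count was 412 without library 3 at 24 h, 23 and 18 without libraries 1 and 2 at 24 h, and 10, 25 and 11 without libraries 1, 2 and 3 at 48 h. The cholesterol list had a median of 0.33 in DMSO and 0.31 in AS1842856 cells, with none passing in either. The AS1842856 change minus the DMSO change passed for 1 gene (0.00872%), Gm10698, at -1.23, where its AS1842856 libraries lay at the bottom level of the gene at both times. It was 1 without AS1842856 library 3 at 24 h too. At an unadjusted p under 0.05 there were 221 positive (1.93%) and 222 negative (1.94%) differences, 3.86% in all.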

How the data were processed

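RNA sequencing of 24 libraries was analysed from the authors' 4 processed tables, 6 DMSO libraries being compared here. The authors deposited normalised log2 expression per library, and no header names the transformation. The tools listed, per the submitters' processing notes and without their roles, are DESeq2 1.44.0, Salmon 1.1.1 and STAR 2.7.11b, with the build mm10. No source used here states strandedness, so overlapping and antisense genes are uncertain. Each table listed 41444 genes, 20000 with values and 21444 at 0 everywhere. Counts were not analysed here, so depth and counting error are unknown. All libraries share 1 scale, with medians from 9.16 to 9.23.

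Genes were kept (11470) when the average expression the authors deposited beside the library values was at least the log2 value of a normalised count of 10 plus 1. How that column was made is not stated, and it is not the mean of the library values. Each comparison had its own linear model over its own groups (limma 3.58.1, R 4.3.3, trended variance). Benjamini-Hochberg adjustment ran over 11470 genes, with calls at an adjusted p under 0.05. The design had foreseen a count test, which these values do not allow. Time changes were compared as contrasts in 1 model of 4 groups. The test was run on simulated data with independent noise in each gene and library. No simulated library stood apart as DMSO library 1 at 48 h does, so that check does not cover such a library. Positions are from GENCODE M21 (GRCm38), which held 11438 of the tested genes, and promoter sequences are from RefSeq (GRCm38.p6), with entries for 8406. The 36 gene lists held 780 entries, 666 tested, with 41 genes in more than 1 list.

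The comparison, the lists and the naming rule were chosen with earlier results of these data known. The rule named FOXO genes, the 12 largest changes each way that passed, in each list up to 4 members by smallest adjusted p, the 5 largest differences between vehicles each way, and the 5 highest-expressed genes that passed. No gene met its size part, so the 12 highest and 12 lowest without the test were added after seeing the data, as were counts without overlap and fits with 4 groups. Other genes named, such as further sterol genes, Srm, Hspe1, Hspd1, Chac1, Atf4, Btg2, Mxd4 and Cad, were chosen after their values were seen. Alternatives covered filters, scaling, a pseudocount of 16, variance trend, array weights, groups in the fit, a replicate block and leaving out each library. A value after ± is a standard error unless SD is written. Figures used matplotlib 3.10.9 in Python 3.11.15. Some genes are not reported here.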

Additional observations from a re-analysis of the deposited data

Results flagged for a closer look

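Gm10698 was flagged because its time change in DMSO differed from that in the other groups, by 1.23 against EtOH and by -1.23 for AS1842856 minus DMSO (limma). Both values restate the distance of the DMSO 48 h libraries from the bottom level of this pseudogene, where 20 of the 21 other libraries lay. A further 10 genes were flagged because their time changes in DMSO and EtOH differed (limma, adjusted p under 0.05). The difference, DMSO minus EtOH, was positive for Tmprss3 (1.32), Ap4m1, an adaptor subunit of vesicle transport (0.81), Slamf6, a lymphocyte receptor (0.81), Kmt2a, a histone methyltransferase (0.74), and Cd24a (0.66). It was negative for Lta (-0.98), Sema7a (-0.73), Rgs10 (-0.61), Fgl2, a fibrinogen-like protein (-0.60), and Prdx5, a peroxiredoxin (-0.53). In Ap4m1, Cd24a, Kmt2a, Slamf6 and Tmprss3 the DMSO difference was positive and the EtOH difference negative, and in Lta, Fgl2, Prdx5, Rgs10 and Sema7a the reverse held. All groups held 3 libraries, so single libraries were not tested as outliers.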

How the results depend on the processing

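The count of 1 gene between 48 h and 24 h in DMSO became 7 without a filter on low values, 0 with a filter at a normalised count of 100, which removes Gm10698 (limma; 1017 at an unadjusted p under 0.05), 223 with all 8 groups and 104 with the 4 vehicle groups in the fit, and 1 to 4 with single libraries left out (2 without 24 h library 3, 4 without 48 h library 3). The EtOH count of 2908 became 1689 without the filter, 1332 with all 8 groups and 1704 to 2858 with single libraries left out. The count of 91 genes whose time changes differed became 21 without the filter, 37 without the variance trend, 270 with all 8 groups, 435 with array weights and 2 to 212 with single libraries left out. It was 6, 2 and 5 without EtOH 24 h libraries 1, 2 and 3, 3 and 2 without EtOH 48 h libraries 2 and 3, 15 and 212 without DMSO 24 h libraries 2 and 3, and 148, 3 and 52 without DMSO 48 h libraries 1, 2 and 3. In alternatives added after seeing the data, the AS1842856 count of 46 became 10 to 412 with single libraries left out, and the count of 1 for AS1842856 minus DMSO became 1 to 4 (2 without AS1842856 48 h library 2, 4 without DMSO 24 h library 1). The number of cholesterol genes that passed, 0, became 10 with all 8 groups and 5 with the 4 vehicle groups. It stayed at 0 with the 4 groups of the compound arm. The cause of these shifts was not tested.

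The list median of cholesterol synthesis stayed between 0.24 and 0.41 and its count of higher members without overlap between 12 and 19 over the alternatives run. Hsd17b7, at 0.04, ranged from -0.0558 to 0.145 with single libraries left out and reversed without library 2 of 24 h (-0.0558) or of 48 h (-0.0455).

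Equal replicate numbers did not pair the DMSO libraries: deviations of same-numbered libraries correlated at -0.06, -0.25 and 0.08. With the replicate block 3 genes passed in DMSO, Gm10698, Cd22 and Rdh10, 36 differed between vehicles and 36 passed in AS1842856. Same-numbered AS1842856 and DMSO libraries correlated at 0.41, 0.25 and 0.15 at 48 h but at 0.46, -0.34 and -0.19 at 24 h, and with the block 1 gene still differed between their time changes. Array weights gave DMSO 48 h library 1 the lowest weight, 0.365, of the 6.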

Other observations

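Several lists outside the account above are given here by their members without overlap in DMSO. Over all tested genes 8.17% were higher and 9.20% lower without overlap. Interferon-stimulated genes had 3 higher and 2 lower of 21, with Gbp7, a guanylate-binding protein, at 12.18, 12.18 and 12.09 at 48 h, against 12.37, 12.41 and 12.47 at 24 h. p53 targets had 2 higher of 19, glycolysis 1 lower of 20, hypoxia response 2 lower of 19, MHC class II presentation none of 10 and circadian clock genes 1 higher and 1 lower of 15. NF-kB targets had 4 higher of 16 and none lower. The mean of that list in a library averaged 8.24 ± 0.0905 at 48 h and 8.14 ± 0.0147 at 24 h (SD, n = 3 each), without overlap. Lck, a T-cell kinase, held 10.51, 10.34 and 10.47 at 48 h, against 10.64, 10.80 and 10.66 at 24 h. Lyz2, a myeloid lysozyme, held 5.92, 6.31 and 6.29 at 48 h, against 6.35, 6.88 and 6.82 at 24 h.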
